A study of Rattus norvegicus with 30 samples.

Results

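The genes described here encode parts of the actin cytoskeleton, together with vimentin and 1 tubulin: the actins Acta1 and Acta2, the tropomyosins Tpm1 and Tpm4, the crosslinkers Flna and Actn1, the myosin light chain Myl9, the intermediate filament protein Vim and the microtubule protein Tubb2a. They were taken as a list of 9 of the 14217 genes the array's gene table names singly, and every probe set that the array's gene table gives to 1 of them alone was included. That gave 17 of 31042 probe sets without controls: 7 for Tpm1, 2 each for Tpm4 and Actn1 and 1 for each other gene. Of these, 15 passed the filter on low signal, and the 2 that did not (Tpm1 1370513_at and 1371240_at) are given by their levels. Another 5 probe sets are given to Acta2 and Actc1 together, so they name neither gene and are described apart.

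The cells were primary hepatocytes of male Sprague Dawley rats, bought frozen, thawed, plated on collagen and covered with Matrigel. On day 3 of culture they received dioctyl phthalate, a plasticiser of the phthalate ester class, for 24 or 48 h. The doses were 250 and 1000 µM, and controls had the 1% DMSO vehicle alone. Each of the 6 groups had 5 arrays, 1 per culture well, and the series asks how dose and time of exposure change RNA levels. All 6 groups share the strain, the sex and the culture. DMSO is named for the dosing solutions of every dose, and its share in the medium is labelled for vehicle alone. The sources used here do not give how many animals or vials stand behind the 30 wells, so errors and p-values describe the spread between wells.

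Actin monomers polymerise into filaments that carry tension, and tropomyosins wind along those filaments and set which motors and crosslinkers bind. Filamin A (Flna) and alpha-actinin 1 (Actn1) tie filaments into networks and bundles, and the regulatory light chain Myl9 works with non-muscle and smooth muscle myosin. Many actin cytoskeleton genes are targets of serum response factor (SRF), which binds the CArG box and is switched on by cofactors that sense free actin monomers. Hepatocytes in the liver hold little vimentin or muscle actin, and hepatocytes in culture are known to gain both, with actin fibres, as they spread and lose their differentiated state. Acta2 is also the classical marker of activated stellate cells.

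The sequence just upstream of the transcription start is shown for Acta1, Vim and Tpm4, whose signals differed most clearly from vehicle below. Each is 250 bases on the gene's own strand, 5′ to 3′ and ending at the base before the start, from RefSeq on the GRCr8 build. Acta1 lies at chr19:68784195-68784444 (minus strand), Vim at chr17:81577011-81577260 (plus strand) and Tpm4 at chr16:17732484-17732733 (minus strand). Capitals mark matches, on either strand, to 4 motifs: the CArG box bound by SRF, GGAATG (the core bound by TEAD factors), TATAAA (the core that TATA-binding protein binds) and GGGCGG (a GC box). No capital run holds 2 of these motifs.
Acta1: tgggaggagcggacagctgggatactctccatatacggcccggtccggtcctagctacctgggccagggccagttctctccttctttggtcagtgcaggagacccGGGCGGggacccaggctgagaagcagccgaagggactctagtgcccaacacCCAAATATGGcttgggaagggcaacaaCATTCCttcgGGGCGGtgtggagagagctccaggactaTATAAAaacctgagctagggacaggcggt
Vim: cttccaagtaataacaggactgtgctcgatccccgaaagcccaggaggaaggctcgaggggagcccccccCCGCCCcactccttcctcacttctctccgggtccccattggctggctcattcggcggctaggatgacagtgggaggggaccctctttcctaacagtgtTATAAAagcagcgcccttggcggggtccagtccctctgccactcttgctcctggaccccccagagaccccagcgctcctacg
Tpm4: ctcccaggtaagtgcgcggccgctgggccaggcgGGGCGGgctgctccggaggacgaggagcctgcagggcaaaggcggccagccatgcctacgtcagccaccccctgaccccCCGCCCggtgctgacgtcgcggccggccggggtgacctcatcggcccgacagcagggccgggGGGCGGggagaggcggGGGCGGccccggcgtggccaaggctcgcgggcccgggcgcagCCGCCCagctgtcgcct

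Sequences of this length were found for 8 of the 9 genes, Myl9 being the exception. The CArG box was searched for as CCWWWWWWGG alone, W being A or T. An exact match lay upstream of 1 of the 8, Acta1, at 94 to 85 bases before the start. Such a match was present in 1.50% of all 33469 promoters of the same length. Variants of the box were not searched for, so the other genes, Acta2 among them, may hold sites that SRF binds in these bases. GGAATG was in 4 of the 8 (Acta1, Acta2, Flna and Tpm1) and in 12.1% of all promoters. TATAAA was in 3 of the 8 (Acta1, Vim and Tubb2a) and in 12.9% of all. GGGCGG was in 7 of the 8, Acta2 being the exception, and in 30.5% of all. Tpm4 held 5 copies of GGGCGG in its 250 bases, which are 79.2% G or C, against 59.6% for Acta1 and 62.4% for Vim. A match describes these letters only.

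Before the values, 1 property of the arrays bears on the 48 h comparisons. Control probe sets read beta-actin at its 3' and its 5' end, and their log2 ratio (3' over 5') rises where RNA or its labelled copies are shortened. This ratio was 2.44, 1.74, 1.70 and 1.66 on vehicle replicates 1, 2, 3 and 5 at 48 h, and 1.04 on replicate 4. The means of the other 5 groups were 1.14 to 1.30. The Gapdh ratio was also higher in vehicle at 48 h, 0.219 ± 0.0545 (SD, n = 5) against means of 0.123 to 0.147. Comparisons with 48 h vehicle were therefore also fitted with the actin ratio as a covariate and without those 4 arrays, and calls of the named genes against vehicle that these fits lost or gained are given. The second leaves 1 vehicle array, which is assumed to vary like the other groups. Log2 signals of arrays of the same group correlated at 0.955 to 0.981 across the 18625 probe sets tested.

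After 24 h of dioctyl phthalate, most of these genes had lower signals than in vehicle, and no member was called higher. At 250 µM, 11 of the 15 tested probe sets, from 8 genes, were lower at an adjusted p under 0.05 in limma, where 8.78% of all probe sets tested were called lower. At 1000 µM it was 10 of 15, also from 8 genes, against 9.08%. The median log2 change of the 15 was −0.46 at both doses, beside −0.02 and −0.03 over all 18625 probe sets. After 48 h, 9 of 15 from 7 genes were lower at 250 µM (20.9% of all) and 9 of 15 from 7 genes at 1000 µM (13.6% of all), with medians of −0.37 and −0.34 beside −0.04 and −0.02. With the covariate 10 were lower at each dose at 48 h, with medians of −0.41 and −0.37. Without the 4 vehicle arrays the medians were −0.49 at 250 µM and −0.54 at 1000 µM. The share of all probe sets called lower in these fits was not counted. Their calls in either direction, fewer than with all arrays and no covariate, are given at the end. Both doses are set against the same 5 vehicle arrays at each time, so their changes are not independent of each other. The 9 genes and the lists below were chosen with earlier results of these data known. Their counts and medians beside those of all probe sets are therefore descriptions and no test. All signals are on the log2(signal + 1) scale, and changes on that scale understate those of low signals.

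**Figure D1:**
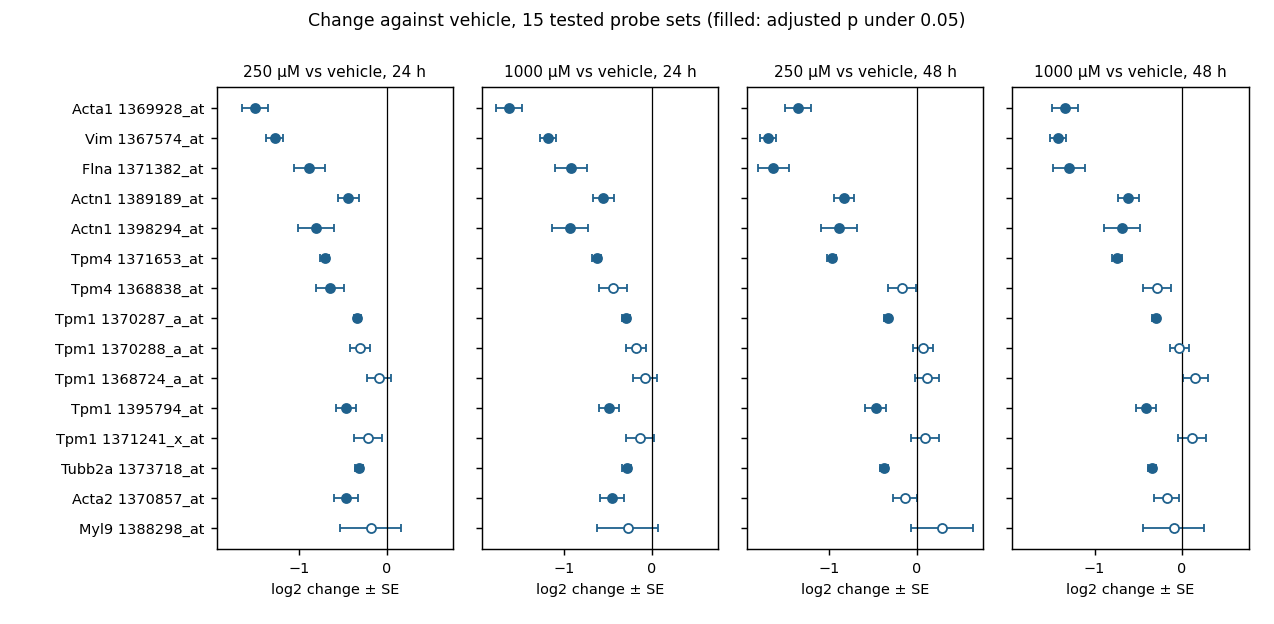
Log2 change against vehicle with its standard error (x axis) for the 15 tested probe sets (y axis) in the 4 dose comparisons, 5 arrays per group. Filled points have an adjusted p under 0.05. Acta1 and Vim lie between −1.19 and −1.70 in all 4 panels, left of every other probe set except Flna (−1.64) at 250 µM at 48 h, and no filled point lies right of 0.

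Acta1 (1369928_at), the skeletal muscle alpha-actin, was lower at both doses and both times and rose with time in culture. Its log2 signals in vehicle at 24 h were 12.67, 11.86, 12.22, 11.61 and 11.65. At 250 µM they were 10.40, 10.34, 10.66, 10.59 and 10.49, and at 1000 µM 10.52, 10.33, 10.31, 10.26 and 10.42. All 10 treated arrays lay below all 5 vehicle arrays. The change at 24 h was −1.51 ± 0.15 (SE) at 250 µM, 2.84-fold lower, with an adjusted p of 1.7e-09. At 1000 µM it was −1.63 ± 0.15, 3.10-fold lower, with an adjusted p of 3.12e-10.

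By 48 h the Acta1 signals in vehicle had reached 13.22, 13.24, 13.35, 13.76 and 13.22. Those at 250 µM were 11.72, 12.17, 11.91, 12.25 and 11.95, and those at 1000 µM 11.63, 12.13, 12.27, 12.24 and 11.85. The treated arrays at 48 h thus lay within the range that vehicle spanned at 24 h, and again below every vehicle array of their own time. The change was −1.36 ± 0.15 at 250 µM (2.57-fold lower, adjusted p = 8.61e-09) and −1.33 ± 0.15 at 1000 µM (2.52-fold lower, adjusted p = 1.91e-08). Without the 4 vehicle arrays these were −1.76 and −1.74, both still called. From 24 to 48 h Acta1 rose by 1.36 ± 0.15 in vehicle, 2.56-fold, by 1.50 under 250 µM and by 1.66 under 1000 µM, and all 3 rises were called. The difference between times in the effect of each dose, 0.15 ± 0.21 and 0.30 ± 0.21, was not called.

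Acta2 (1370857_at), smooth muscle alpha-actin, had smaller differences, and called ones at 24 h alone. Its vehicle signals at 24 h were 10.49, 9.96, 10.31, 10.16 and 10.39. At 250 µM they were 9.50, 9.60, 9.52, 10.05 and 10.31, and at 1000 µM 9.57, 9.74, 9.74, 9.97 and 10.00, so both doses overlapped vehicle. The change was −0.46 ± 0.14 at 250 µM (adjusted p = 0.02) and −0.46 ± 0.14 at 1000 µM (adjusted p = 0.0232). The call at 250 µM was lost with only the 2 groups in the fit (adjusted p = 0.0738), and when vehicle replicate 1 or 5, or 250 µM replicate 1, 2 or 3, was left out, and that at 1000 µM when vehicle replicate 1 or 5, or 1000 µM replicate 1 or 3, was, with adjusted p-values up to 0.0759 and 0.0740. At 48 h the changes were −0.14 and −0.17, with adjusted p-values of 0.502 and 0.418. The differences in effect between times, 0.33 ± 0.20 and 0.28 ± 0.20, were not called either.

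Of the 5 probe sets given to both Acta2 and Actc1, cardiac alpha-actin, 1 was tested. This one, 1370856_at, had group means of 8.65 to 9.06 and was called in no comparison. The other 4 had means over the 30 arrays under the limit of 7.88, with group means between 4.34 and 8.48. Outside the control probe sets, none is given to Actb alone, the gene of beta-actin, the main cytoplasmic actin. The controls that read beta-actin were used for their ratio only, so its level was not analysed here.

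**Figure D2:**
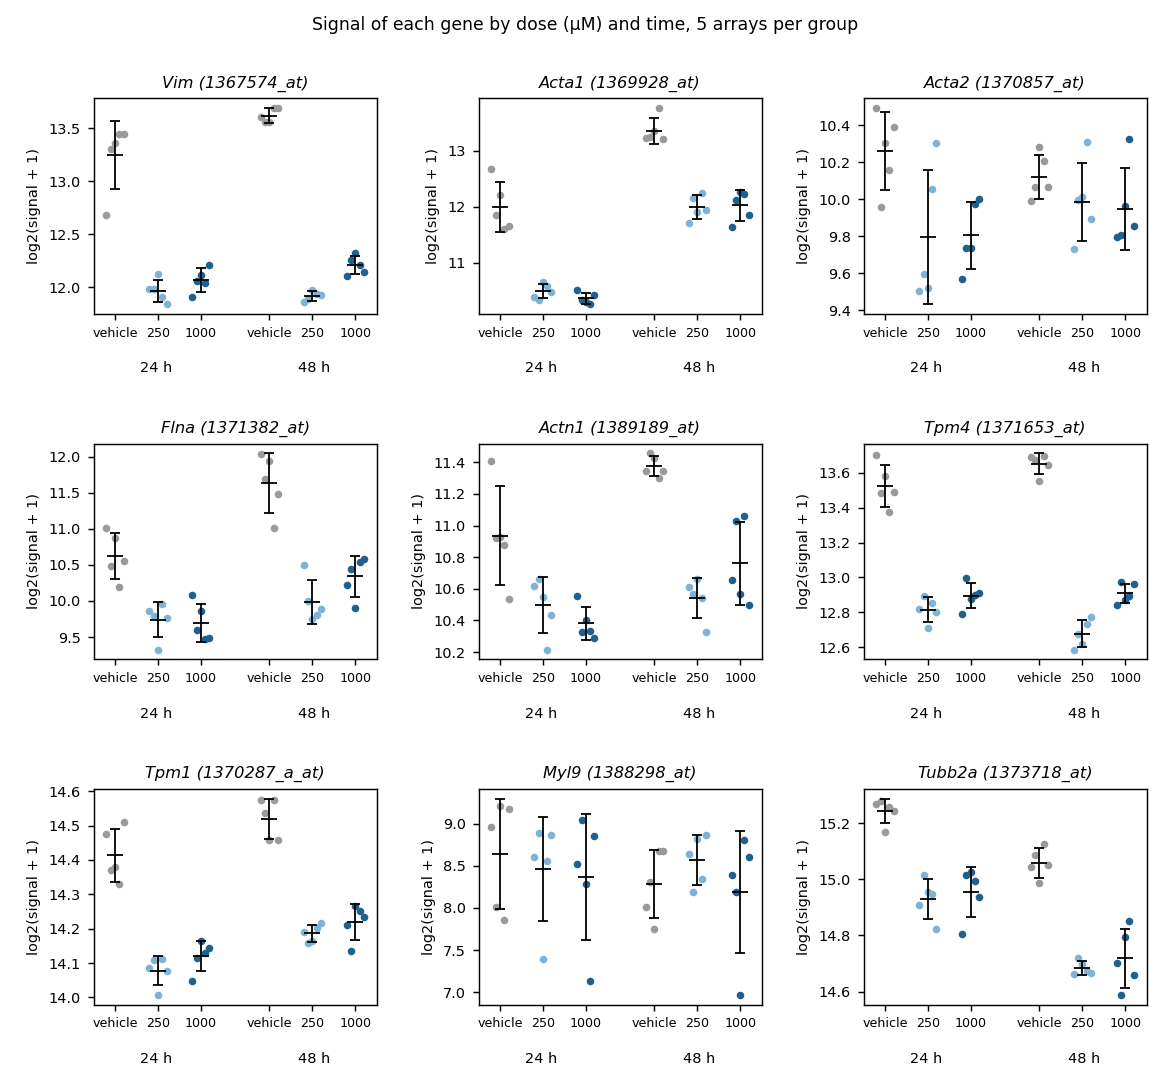
Log2(signal + 1) of 1 probe set for each of the 9 genes on every array (points; y axes differ between panels and do not start at 0) in vehicle, 250 µM and 1000 µM at 24 and 48 h, with the mean and SD of 5 arrays (black). Vim, Acta1, Flna, Actn1, Tpm4, Tpm1 and Tubb2a lie lower with either dose at both times, and Myl9 spreads from 6.97 to 9.21 with no order.

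The tropomyosins split by probe set. For Tpm4, 1371653_at had 13.70, 13.48, 13.58, 13.38 and 13.49 in vehicle at 24 h, then 12.82, 12.90, 12.71, 12.85 and 12.80 at 250 µM and 12.79, 12.99, 12.88, 12.90 and 12.91 at 1000 µM. At 48 h vehicle had 13.69, 13.68, 13.55, 13.70 and 13.65, 250 µM had 12.59, 12.67, 12.62, 12.73 and 12.77, and 1000 µM had 12.84, 12.97, 12.87, 12.89 and 12.96. Vehicle and treated arrays did not overlap at either time. The changes at 24 h were −0.71 ± 0.05 and −0.63 ± 0.05, and at 48 h −0.98 ± 0.05 and −0.74 ± 0.05, in the order 250 and 1000 µM. In fold terms these were 1.64-, 1.55-, 1.97- and 1.68-fold lower, all 4 called. Group membership accounted for 96.5% of the variance of this probe set over the 30 arrays, the highest share among the 15.

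The other Tpm4 probe set, 1368838_at, was lower at 24 h, by 0.65 on the log2 scale at 250 µM (−0.65 ± 0.16, adjusted p = 0.00365), and was not called at 1000 µM (−0.45 ± 0.16, adjusted p = 0.0553), although neither dose overlapped vehicle at that time. At 1000 µM it was called with the covariate (adjusted p = 0.00752), with only the 2 groups in the fit (adjusted p = 0.00117) and without 1000 µM replicate 4 (adjusted p = 0.0462). At 48 h it was called at neither dose (−0.17 and −0.28). Its 48 h vehicle signals were 11.24, 11.33, 11.42, 12.42 and 11.74, against 11.16 to 11.72 at 250 µM and 10.83 to 11.74 at 1000 µM. Replicate 4, the vehicle array with the lowest actin ratio, had the highest signal and replicate 1, with the highest ratio, the lowest. With the ratio as a covariate the 48 h changes of 1368838_at were −0.65 and −0.63, and without the 4 arrays −0.96 and −1.07, all called.

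Tpm1, the other tropomyosin, had 5 tested probe sets, and 2 of them were lower in all 4 dose comparisons. The brightest, 1370287_a_at, lay at 14.33 to 14.51 in vehicle and 14.01 to 14.16 on the 10 treated arrays at 24 h. At 48 h vehicle lay at 14.46 to 14.57 and the treated arrays at 14.14 to 14.27, so neither time had an overlap. Its changes were small beside those of Acta1, but large against their error: −0.34, −0.29, −0.33 and −0.30, each ± 0.04, or 1.23- to 1.26-fold lower. The second, 1395794_at, changed by −0.46, −0.49, −0.47 and −0.41 (each ± 0.12). At 48 h its calls were lost with the actin ratio as a covariate, where it was −0.38 and −0.35, and without the 4 vehicle arrays, where it was −0.31 and −0.25.

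The other 3 tested Tpm1 probe sets, 1370288_a_at, 1368724_a_at and 1371241_x_at, were called in none of the 11 comparisons with all arrays. At 250 µM at 24 h, 1370288_a_at was called with the covariate (−0.29, adjusted p = 0.00148) and with only the 2 groups in the fit (−0.30, adjusted p = 0.00544). The changes of the 3 against vehicle lay between −0.30 and −0.08 at 24 h and between −0.03 and 0.16 at 48 h. The 2 dim probe sets had group means of 4.90 to 5.71 (1370513_at) and 5.07 to 5.72 (1371240_at), and neither was called in a fit without the filter. Of the 7, 4 carry the suffix _a_at or _x_at, which Affymetrix gives to probe sets that read several transcripts of a gene or may cross-hybridise. These are 1370287_a_at, which was called, and the 3 that were not. Tpm1 makes many transcripts by alternative splicing, and which of them each probe set reads was not analysed here.

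Like Tpm4 1368838_at, Tpm1 1370288_a_at moved with the actin ratio among the 48 h vehicle arrays. Its signals there were 12.33, 12.76, 12.82, 13.41 and 12.94, while the treated arrays at 48 h lay between 12.67 and 13.13. The change at 48 h, 0.07 at 250 µM and −0.03 at 1000 µM, became −0.34 and −0.33 with the covariate and −0.49 and −0.59 without the 4 arrays, and was then called. After group means were removed, the 2 probe sets correlated at r = 0.86 (rho = 0.82) over 30 arrays, and at 0.81 without the 2 arrays farthest from the median. This was the highest of 105 pairs and is given as a description. Both probe sets were read on the same arrays, whose actin ratios differ, and the cause of the correlation was not tested.

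**Figure D3:**
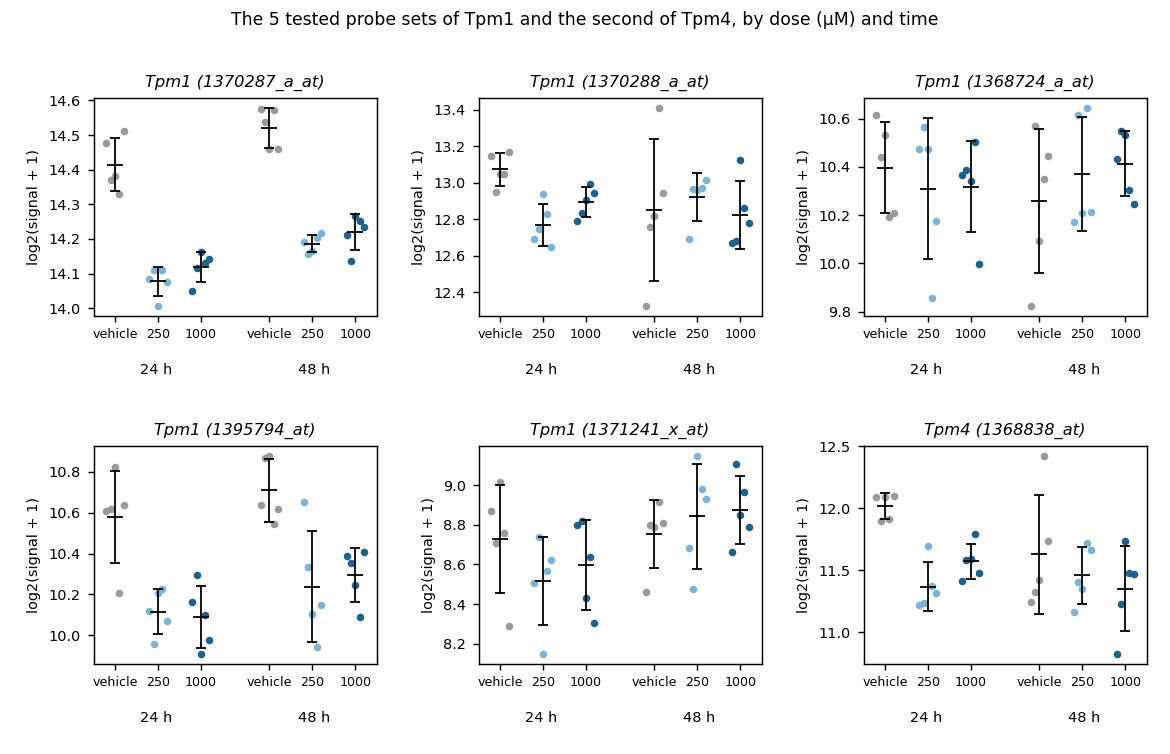
Log2(signal + 1) of the 5 tested Tpm1 probe sets and of Tpm4 1368838_at on every array (points; y axes differ and do not start at 0) by dose and time, with the mean and SD of 5 arrays. The 5 vehicle arrays at 48 h spread from 12.33 to 13.41 for 1370288_a_at and from 11.24 to 12.42 for 1368838_at, more widely than the other groups, and from 14.46 to 14.57 for 1370287_a_at.

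Flna (1371382_at), filamin A, was lower in all 4 dose comparisons, and its size at 48 h depended on the vehicle arrays used. At 24 h vehicle had 11.005, 10.48, 10.87, 10.19 and 10.56, 250 µM had 9.86, 9.79, 9.33, 9.96 and 9.76, and 1000 µM had 10.08, 9.60, 9.86, 9.47 and 9.48. No treated array reached the lowest vehicle array. The changes were −0.88 ± 0.18 (adjusted p = 0.000467) and −0.92 ± 0.18 (adjusted p = 0.000282), 1.84- and 1.90-fold lower.

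At 48 h the Flna signals in vehicle were 12.04, 11.69, 11.95, 11.004 and 11.48. Those at 250 µM were 10.50, 10.00, 9.75, 9.81 and 9.88, and those at 1000 µM 10.22, 10.45, 9.90, 10.55 and 10.59, again without overlap. Here replicate 1, with the highest actin ratio, had the highest vehicle signal and replicate 4 the lowest, the reverse of 1370288_a_at and 1368838_at. The changes of −1.64 ± 0.18 (3.12-fold lower) and −1.29 ± 0.18 (2.45-fold lower) became −1.26 and −1.01 with the covariate, both called. Without the 4 arrays they were −1.02 (adjusted p = 0.0197) and −0.66 (adjusted p = 0.182), the latter not called. Flna rose by 1.01 ± 0.18 from 24 to 48 h in vehicle and by 0.64 under 1000 µM. In vehicle the rise was 0.62 with the covariate and 0.38 without the 4 arrays, and was then not called.

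**Figure D4:**
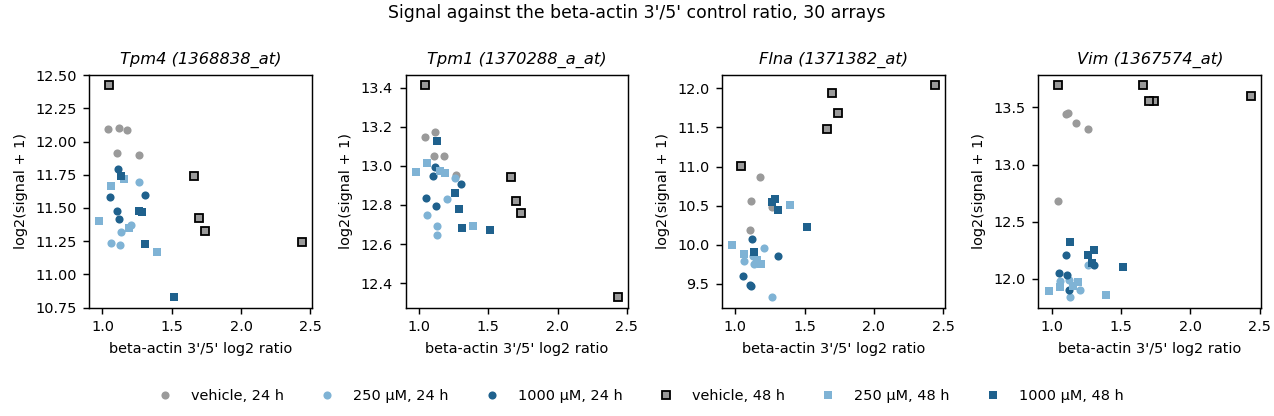
Log2(signal + 1) (y axes, not from 0) of 4 probe sets against the beta-actin 3'/5' log2 ratio (x axis) on 30 arrays; colour gives the dose, circles 24 h, squares 48 h and outlined squares vehicle at 48 h. From the ratio of 1.04 to that of 2.44, the 5 outlined squares run from 12.42 to 11.24 for Tpm4 1368838_at, from 13.41 to 12.33 for Tpm1 1370288_a_at and from 11.004 to 12.04 for Flna, while Vim lies between 13.56 and 13.69 on all 5.

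Actn1, alpha-actinin 1, was lower by both of its probe sets in all 4 dose comparisons. On 1389189_at vehicle at 24 h had 11.41, 10.92, 10.93, 10.88 and 10.54. Here 250 µM had 10.62, 10.66, 10.55, 10.22 and 10.44, and 1000 µM 10.55, 10.33, 10.41, 10.33 and 10.29, so a single vehicle array, replicate 5, lay among the treated ones. At 48 h the vehicle signals, 11.35, 11.46, 11.43, 11.30 and 11.35, lay above all 10 treated arrays, which spanned 10.33 to 11.06. The changes were −0.44, −0.55, −0.83 and −0.62 (each ± 0.12), or 1.36- to 1.78-fold lower.

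On 1398294_at the changes were −0.81, −0.94, −0.89 and −0.69 (each ± 0.21), 1.61- to 1.91-fold lower. The 2 probe sets thus had the same direction in each dose comparison. Without the 4 vehicle arrays at 48 h, 1389189_at stayed called at 250 µM (−0.76) and not at 1000 µM (−0.54, adjusted p = 0.14), and 1398294_at was called at neither (−1.03 and −0.83). With the covariate all 4 of these stayed called, from −0.61 to −0.89. From 24 to 48 h, 1389189_at rose by 0.44 in vehicle, and under 1000 µM both rose, by 0.38 and 0.65. The rise in vehicle was not called with the covariate (0.43) or without the 4 arrays (0.37). That of 1389189_at under 1000 µM was lost without 1000 µM replicate 2, 4 or 5 at 24 h or replicate 2 or 4 at 48 h, and that of 1398294_at without replicate 2, 3 or 5 at 24 h or replicate 1, 2 or 5 at 48 h, with adjusted p-values up to 0.101.

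Myl9 (1388298_at), the regulatory myosin light chain, was called in no comparison. Its signals ran from 7.86 to 9.21 in vehicle and from 7.14 to 9.05 on the treated arrays at 24 h, and from 7.75 to 8.68 and from 6.97 to 8.87 at 48 h. The changes of −0.18, −0.27, 0.29 and −0.09 each had an SE of 0.35, so the wells could not show a difference of the size seen for Tpm1. Group membership accounted for 7.98% of its variance.

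Vim (1367574_at), vimentin, had the clearest difference from vehicle at 48 h. At 24 h vehicle had 12.69, 13.31, 13.37, 13.44 and 13.45, 250 µM had 11.99, 11.98, 12.12, 11.90 and 11.84, and 1000 µM had 11.90, 12.05, 12.12, 12.04 and 12.21. At 48 h vehicle had 13.60, 13.56, 13.56, 13.69 and 13.69, 250 µM had 11.86, 11.89, 11.97, 11.94 and 11.93, and 1000 µM had 12.11, 12.25, 12.32, 12.21 and 12.14. All 20 treated arrays lay below all 10 vehicle arrays, even replicate 1 at 24 h, which was itself below the other vehicle arrays.

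The Vim changes at 24 h were −1.28 ± 0.09 (2.43-fold lower, adjusted p = 1.06e-12) and −1.19 ± 0.09 (2.27-fold lower, adjusted p = 8.31e-12) at 250 and 1000 µM. At 48 h they were −1.70 ± 0.09 (3.26-fold lower, adjusted p = 4.76e-16) and −1.41 ± 0.09 (2.66-fold lower, adjusted p = 7.95e-14). With the covariate the 48 h values were −1.72 and −1.42, and without the 4 vehicle arrays −1.77 and −1.48, all called. In vehicle Vim rose by 0.37 ± 0.09 from 24 to 48 h, or by 0.23 without vehicle replicate 1 at 24 h, called either way. It was not called with the covariate (0.39, adjusted p = 0.0518) or without the 4 arrays (0.44, adjusted p = 0.317). Under 250 and 1000 µM it changed with time by −0.05 and 0.14, neither called.

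Tubb2a (1373718_at), a beta-tubulin, had the highest signals of the list and small differences. At 24 h vehicle lay between 15.17 and 15.28 and the treated arrays between 14.80 and 15.03, and at 48 h vehicle lay between 14.99 and 15.13 and the treated arrays between 14.59 and 14.85. The changes were −0.31, −0.29, −0.37 and −0.34 (each ± 0.05), 1.22- to 1.30-fold lower, all 4 called and without overlap. Tubb2a fell with time, by 0.18 in vehicle, 0.25 under 250 µM and 0.24 under 1000 µM. The fall in vehicle was not called with medians centred (−0.12), with quantile normalization (−0.06), with the covariate (−0.15) or without the 4 arrays (−0.12), and that under 250 µM not with medians centred (−0.19).

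Few probe sets on the whole array separated the 2 doses, so the counts below are no trait of these genes. Between 1000 and 250 µM, 0 of 15 probe sets were called at 24 h and 0 of 15 at 48 h in limma, where 0.0161% and 0.0698% of all probe sets were called. At an unadjusted p under 0.05 there were 0 at 24 h and 2 at 48 h, beside 625 and 2057 of all 18625 probe sets. The 2 were Vim (0.29 higher at 1000 µM, 95% interval 0.10 to 0.48, adjusted p = 0.256) and Tpm4 1371653_at (0.23 higher, interval 0.12 to 0.34, adjusted p = 0.139). Their treated groups at 48 h did not overlap, and how often this occurred over all probe sets was not counted. For Acta1 the interval of the difference was −0.43 to 0.18 at 24 h and −0.28 to 0.33 at 48 h. For Flna it was −0.41 to 0.33 and −0.02 to 0.72, so differences of up to 0.72 between the doses remain possible there.

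From 24 to 48 h in vehicle, 4 probe sets rose (Acta1, Flna, Actn1 1389189_at and Vim) and Tubb2a fell, 5 of 15 where 24.9% of all were called in either direction. Under 250 µM 2 of 15 were called (9.67% of all), Acta1 upward and Tubb2a downward, and under 1000 µM 5 of 15 (15% of all). The difference between times in the effect of 250 µM was called for 2 of 15, where 6.09% of all were. It was −0.42 ± 0.13 for Vim (adjusted p = 0.0492) and −0.26 ± 0.08 for Tpm4 1371653_at (adjusted p = 0.0372), so both were lower against vehicle at 48 than at 24 h. The Vim call held in 6 of 20 fits that left out 1 array and the Tpm4 call in 8 of 20, and neither held with the covariate or without the 4 vehicle arrays. For 1000 µM, 0 of 15 were called in limma, where 0.489% of all were called. None of the 15 had an unadjusted p under 0.05 either, where 2015 of all 18625 probe sets did.

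The other genes of the actin cytoskeleton were read from a list of 60, of which 52 were found on the array and 46 had a tested probe set (77 in all). At 24 h, 18 of the 46 genes were lower and 1 higher at 250 µM, and 19 were lower and 1 higher at 1000 µM. In probe sets, 22 and 25 of 77 were lower at 24 h, beside 8.78% and 9.08% of all, and 31 and 25 at 48 h, beside 20.9% and 13.6%. At 48 h the counts were 25 lower and 4 higher at 250 µM, with 1 gene in both counts through different probe sets, and 21 lower and 3 higher at 1000 µM. With the covariate the 48 h counts were 23 and 18 genes lower and 1 higher at each dose. The share of all probe sets called lower in that fit was not counted. The medians over the 77 probe sets were −0.20, −0.18, −0.22 and −0.14, and at 48 h −0.31 and −0.19 without the 4 vehicle arrays.

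Among the genes of that list with the smallest p, Myh9, the non-muscle myosin heavy chain, changed by −0.41, −0.47, −0.82 and −0.59. Pdlim1, which links alpha-actinin to other proteins, changed by −0.34, −0.34, −0.56 and −0.52, and the calponin Cnn3 by −0.40, −0.30, −0.49 and −0.40. Tmsb4x, which binds actin monomers, changed by −0.44, −0.42, −0.67 and −0.56. The 4 genes were called lower in all 4 dose comparisons, with changes under those of Acta1 and Vim. At 48 h all stayed called with the covariate and without the 4 vehicle arrays, except Myh9 at 1000 µM without them (−0.24, adjusted p = 0.331). Fhl2, a LIM domain protein of focal adhesions, was 1.88-fold lower at 250 µM and 1.62-fold lower at 1000 µM at 24 h. At 48 h the smallest p also included Rdx (−0.90 and −0.63), Actn4 (−0.64 and −0.46) and Tpm3 (−0.64 and −0.64). Cap1 at 250 µM (−0.83) and Cnn2 at 1000 µM (−0.59) were among them too. All stayed called with the covariate. Without the 4 vehicle arrays the changes, in the same order, were −0.59 and −0.31, −0.37 and −0.19, −0.31 and −0.31, −0.60, and −0.66.

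Of 24 tubulins and intermediate filament genes, 21 were on the array and 16 had a tested probe set. The genes lower in the 4 dose comparisons numbered 7, 9, 7 and 9, and 0 were higher. In probe sets these were 8, 10, 10 and 12 of 22, beside 8.78%, 9.08%, 20.9% and 13.6% of all. Tubb5, another beta-tubulin, changed by −0.67, −0.71, −1.36 and −1.19, and Map4, which stabilises microtubules, by −0.76, −0.79, −1.16 and −0.81. Krt18 and Krt8, the keratins of hepatocytes, changed by −0.22 and −0.20 at 250 µM at 24 h. At 1000 µM at 48 h Krt18 was not called with the covariate (−0.20, adjusted p = 0.096), and its change without the 4 vehicle arrays was −0.29. With the covariate 6 and 4 genes of this list were lower at 48 h, where the share of all probe sets was not counted. Without the 4 vehicle arrays the median of the 22 probe sets at 48 h was −0.23 at each dose. Tubb5 stayed called there at both doses in both fits, and Map4 in all but 1000 µM without the arrays (−0.36, adjusted p = 0.37). The effect of 250 µM differed between times for Tubb5 by −0.69 (adjusted p = 0.000537), a call lost without those arrays.

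Markers of other liver cells were read beside these results. Of 14 markers of stellate cells and myofibroblasts, all on the array, 6 were above the low-signal limit, and Tagln, Cnn1, Lrat, Pdgfrb, Col1a2, Lum, Dcn and Ngfr were under it. In the 4 dose comparisons 1 of the 6 was called, Col1a1 at 250 µM at 48 h, and it was higher (0.78 ± 0.21). It was not called with the covariate (0.63, adjusted p = 0.107) or without the 4 vehicle arrays (0.78, adjusted p = 0.214). The summed signal of the 14 was 3112 to 4588 in vehicle and 3640 to 4486 on treated arrays at 24 h, and 3463 to 3865 and 3147 to 4491 at 48 h, so vehicle and treated arrays overlapped. Of these 14 genes, Tagln, Cnn1, Des and Gfap are also in the cytoskeleton lists. The 9 hepatocyte markers found were all above the limit, and 4, 3, 5 and 5 of them were lower in the 4 dose comparisons (1 probe set each, of 14 tested, beside the shares of all probe sets given above). At 48 h the counts were 4 and 4 with the covariate, where the share of all probe sets was not counted. Without the 4 vehicle arrays the median change of the 14 probe sets was −0.15 and −0.27. Ass1, a urea cycle enzyme, changed by −0.63, −0.64, −0.79 and −0.76. The part of cell mixture in the results was not tested otherwise, and in RNA from whole wells fewer cells of a type and less RNA per cell cannot be told apart.

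Endothelial markers (8 of 10 on the array, 4 above the limit) had summed signals of 2770 to 4071 in vehicle and 3409 to 4043 on treated arrays at 24 h, and 1880 to 2568 and 2334 to 2909 at 48 h. Of the 4, Eng was higher at 250 µM at 24 h (0.64) and Fcgr2b at 250 µM at 48 h (0.54). The share of all probe sets called higher was not counted. With time in vehicle 3 of the 4 fell, beside 24.9% of all probe sets called in either direction. The Fcgr2b call was lost with the covariate (0.30, adjusted p = 0.163) and without the 4 vehicle arrays (0.05, adjusted p = 0.922), and of the 3 falls in vehicle Fcgr2b alone stayed called in either fit. Of 7 Kupffer cell and leukocyte markers above the limit, Cd14 was higher at 48 h at both doses (0.34 and 0.18) and Cd68 lower at 1000 µM (−0.53). All 3 calls held with the covariate, and none without the 4 arrays (0.32, 0.16 and −0.73, with adjusted p-values of 0.0562, 0.468 and 0.227). Their summed signals were 22803 to 29490 in vehicle and 24172 to 28258 on treated arrays at 24 h, and 20793 to 23142 and 20526 to 25391 at 48 h. From 24 to 48 h in vehicle 3 of these 7 were lower and 0 higher, so falls with time were not particular to the endothelial markers. With the covariate 1 of the 7 was lower with time. The only cholangiocyte marker above the limit, Epcam, was lower at 1000 µM at 48 h (−0.16), and in both of those fits at each dose. The part of these markers in the cytoskeleton results was not tested.

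The probe sets most like each gene over the 30 arrays are given as descriptions, since all 30 share the same doses and times. Vim was closest to Depp1 (r = 0.98) and Rnf144b (0.97), and Tpm4 to Ivns1abp (0.97) and Depp1 (0.97). Flna was closest to Myh9 (0.96) and Fat1 (0.95), Acta1 to Tmem123 and Rcan1 (both 0.94), and Actn1 to Gpnmb (0.93) and Slc25a24 (0.92). Tpm1 was closest to Lbp and Myadm (both 0.94), and Tubb2a to Cnih4 (0.96) and Sowahc (0.95). The nearest to Acta2 reached 0.77 (Csnk1d) and to Myl9 0.68 (Cdh3), the 2 genes whose levels varied least with the groups when each gene is read from its brightest probe set.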

How the data were processed

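RNA of 30 culture wells was read on Affymetrix arrays, 1 array per well and 5 per group. The deposited table gives the authors' intensity signal per probe set on a linear scale. The submitters' processing notes name MAS5, whose target scale and settings the sources used here do not state. Array medians differed by up to 0.34 on the log2 scale. No further scaling was applied.

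Signals were converted to log2 after adding 1. Controls (57 of 31099 probe sets) and the 40% with the lowest mean (log2 limit 7.88, signal 234) were left out, which left 18625. limma 3.58.1 in R 4.3.3 fitted 6 group means with 24 residual degrees of freedom and a variance trend. There were 11 two-sided comparisons, each with Benjamini-Hochberg adjustment over all probe sets tested and a threshold of 0.05. The fit was tested on simulated data.

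Members, lists and tests were chosen with earlier results of these data known. Names were drawn from the 9 genes, up to 8 called probe sets of each cytoskeleton list per comparison by p, and called markers. The 2 probe sets most like each gene were added. Not all probe sets of the lists or called markers are given. Genes come from the platform's table, which gave 20826 probe sets 1 symbol, 436 several and 9780 none. The number of arrays limits the precision. Alternatives were another pseudocount (16), other scalings, no filter, 1 probe set per gene, the actin ratio as covariate, fewer groups, a block by sets of arrays and left-out arrays.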

Additional observations from a re-analysis of the deposited data

Results flagged for a closer look

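An array was looked for that stands far from the other 4 of its group in each of 102 groups of member signals, and 6 were found, where chance alone gives about 1 in 20. Vim on vehicle replicate 1 at 24 h was 12.69, below the others at 13.31 to 13.45. Acta1 on vehicle replicate 4 at 48 h, the vehicle array with the low beta-actin ratio, was 13.76, above the others at 13.22 to 13.35. Tpm1 1371241_x_at on vehicle replicate 1 at 48 h, the array with the highest ratio, was 8.46, below 8.79 to 8.92. Tpm1 1370288_a_at on 250 µM replicate 1 at 48 h was 12.69, below 12.96 to 13.02, and Myl9 on 250 µM replicate 3 at 24 h was 7.39, below 8.56 to 8.89. The dim Tpm1 1370513_at was 2.58 on vehicle replicate 3 at 48 h, below 6.02 to 6.76, in a range under the low-signal limit.

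The effect of 250 µM differed between 48 and 24 h by a test of the difference itself for Vim (−0.42) and Tpm4 1371653_at (−0.26). Both calls are lost under several alternatives, given below.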

How the results depend on the processing

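The numbers of members called against vehicle lay between 10 and 11 (250 µM, 24 h), 9 and 11 (1000 µM, 24 h) and at 9 at both doses at 48 h when 1 array was left out. The corresponding ranges were 5 to 7 for time in vehicle, 2 for time under 250 µM, 3 to 5 for time under 1000 µM, and 0 to 0 for the differences between doses and in the effect of 1000 µM. The count for time under 1000 µM fell to 3 without 1000 µM replicate 2 or 5 at 24 h or replicate 2 at 48 h. The count for the effect of 250 µM between times, 2 with all arrays, ran from 0 to 5. It was 4 without vehicle replicate 1 at 24 h and 5 without vehicle replicate 4 at 48 h. These 5 differed in direction. Tpm1 1370288_a_at (0.51) and Tpm4 1368838_at (0.68) were above 0, and Flna (−0.92), Vim and Tpm4 1371653_at were below it. The Vim call was kept in that comparison only without vehicle replicate 1, 3, 4 or 5 or 250 µM replicate 5 at 24 h or vehicle replicate 4 at 48 h. The Tpm4 1371653_at call was kept only without vehicle replicate 1 or 3 or 250 µM replicate 3 or 5 at 24 h, or vehicle replicate 3 or 4 or 250 µM replicate 4 or 5 at 48 h. The count in that comparison was 0 with array medians centred, with no filter, with the actin ratio as a covariate, without the 4 vehicle arrays, with only the groups of the comparison in the fit, and with vehicle replicate 2, 3 or 5 as the only vehicle array at 48 h, the last a choice made after seeing the data.

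For time in vehicle the count was 7 with quantile normalization, which lost Tubb2a. That fit gained Tpm1 1370287_a_at (0.18) and both Tpm4 probe sets in opposite directions, 1371653_at (0.17) and 1368838_at (−0.46). With only the groups of the comparison in the fit the count was 4, and Vim was lost (adjusted p = 0.051). It was 1 with the covariate and 1 without the 4 arrays, and 3, 3 and 1 with replicate 2, 3 or 5 as the only vehicle array at 48 h. For time under 250 µM it was 1, and under 1000 µM 3, with medians centred. With replicate 1 as the only vehicle array, 1 member, Tpm1 1370288_a_at, was called for the effect of 1000 µM between times. The change of this probe set at 48 h reversed from 0.07 to −0.34 with the covariate and −0.49 without the 4 arrays at 250 µM, and from −0.03 to 0.50 with vehicle replicate 1 alone at 1000 µM. Its cause was not tested. With a pseudocount of 16, and with 1 probe set per gene, all calls were the same among the probe sets tested. Over all probe sets, 6556 and 4507 were called at 250 and 1000 µM at 48 h, 3891 and 3205 with the covariate, and 1831 and 1649 without the 4 arrays. The calls for time in vehicle were 4638, 965 and 224. With vehicle reduced to 1 array, that array is assumed to vary like the other groups. The labels give no replicate numbers, but the running numbers in the titles fall into 5 sets of 6 with 1 array of each group, and nothing in the labels says that a set shares a plate or day. A replicate block by set, chosen after seeing the data, lost no call and gained 4: Tpm1 1370288_a_at at 250 µM (adjusted p = 0.0333) and Tpm4 1368838_at at 1000 µM (adjusted p = 0.0196) at 24 h, Tpm4 1368838_at for time in vehicle (adjusted p = 0.0319) and Flna for the effect of 250 µM between times (adjusted p = 0.0423). Deviations from group means correlated over 0.1 in 17 of 75 pairs of the same set (median 0.04) and in 24 of 300 pairs of other sets (median −0.01). Of the 30 arrays, 12 correlated best with one of their own set, where 5 of the 25 arrays compared with each were of that set. Such correlations were thus more frequent within sets, and the main fits hold no block. What the arrays of a set share was not tested.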
